A study of Drosophila melanogaster with 15 samples.

Results

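Maternal mRNA control and germ plasm genes were examined in long-read cDNA isoform assemblies of *Drosophila melanogaster* of the w1118 strain, which carries a mutant allele of the eye colour gene *white* and served as wild type in all samples. The 10 genes were set by gene ID and grouped by their known roles, with no threshold on measured values. Earlier results of these data were known when the set was drawn up. Isoforms of 11848 FlyBase gene IDs were listed in the assemblies, among them those of 9 of the 10 genes, all except *vas*. The genes were *tral* (FBgn0041775), *smg* (FBgn0016070), *cup* (FBgn0000392), *stau* (FBgn0003520), *osk* (FBgn0003015), *nanos* (FBgn0002962), *vas* (FBgn0283442), *tud* (FBgn0003891), *aub* (FBgn0000146) and *BicD* (FBgn0000183). Ovaries of 3-day-old virgin females gave 3 libraries (20 ovaries per replicate), embryos collected 14 to 16 h or 18 to 20 h after egg laying gave 3 libraries per age (50 animals each), and heads of 3-day-old adults gave 6 libraries. The labels name no other allele, transgene or treatment. The ovary and embryo libraries and 4 of the 6 head libraries were size-selected for cDNA over 3 kb. The deposited values were exon positions on dm6 in 3 assemblies, 1 per tissue, with both embryo ages pooled. They held no read numbers per isoform or replicate, so the number of reads behind an isoform and its variation between replicates could not be computed, and tissues were compared by counts of isoforms with no test. According to the study, heads were read most deeply and ovaries least.

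During oogenesis, nurse cells load the oocyte with mRNAs that are stored, kept from translation and moved along microtubules until localized proteins release them. At the posterior pole, Oskar assembles the germ plasm from Vasa, Tudor, Aubergine and other proteins. *nanos* mRNA is translated there, while Smaug and its partner Cup repress it elsewhere in the embryo. Trailer hitch is an LSm-domain protein of repressed mRNA particles, Staufen a double-stranded RNA-binding protein needed to localize *osk* mRNA, and Bicaudal-D an adaptor that joins cargo to the dynein motor.

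The 10 genes held 91 isoforms in ovaries, with 43 in embryos and 93 in heads. These made up 0.679% of the 13398 isoforms in the ovary assembly, 0.208% of the 20701 in embryos and 0.125% of the 74482 in heads. *tral* and *smg* alone gave 42 and 24 of the ovary isoforms. Isoforms were counted by locus, that is, with isoforms of another gene ID on the same strand that share an annotated intron. All 10 loci were represented in ovaries, 7 of them in embryos and 8 in heads. Of the 6693 genes with ovary isoforms, 4747 had isoforms in embryos and 6420 in heads. By deposited ID alone, these numbers were 8 for ovaries, 6 for embryos and 8 for heads, because the ovary isoforms of *cup* and *vas* carried other IDs. The 1 isoform at *vas* carried the ID of *solo*, a gene that shares the first exons of *vas*.

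**Figure D1:**
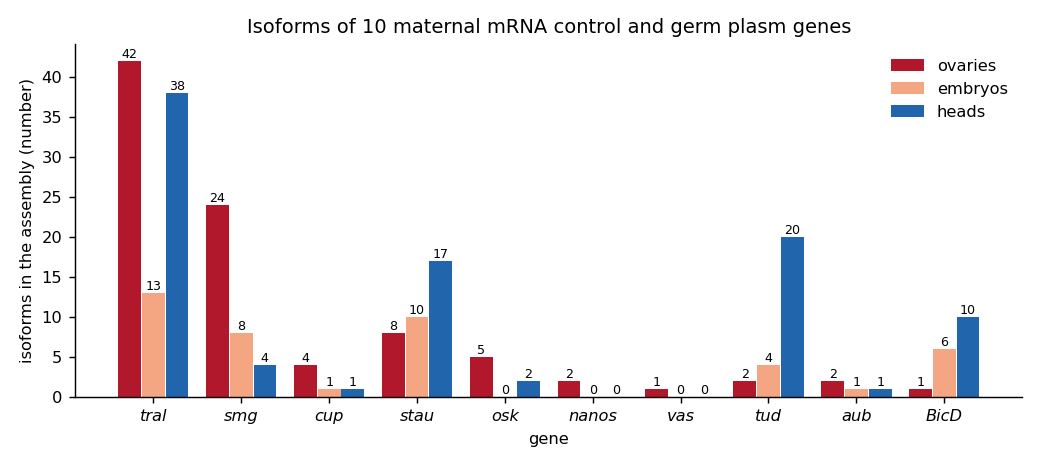
Number of isoforms (vertical axis) of each gene (horizontal axis) in ovaries, embryos and heads, 1 assembly each, counted by locus with no error bars. *tral* had 42, 13 and 38 isoforms, *smg* 24, 8 and 4, and *tud* 2, 4 and 20.

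Of the 10 genes, 7 had more isoforms in ovaries than in heads (*tral*, *smg*, *cup*, *osk*, *nanos*, *aub* and, through *solo*, *vas*). Over the 6693 genes with ovary isoforms, this was the case in 6.66%. *tral* depended on small differences: with near-identical isoforms merged it had 28 in ovaries and 30 in heads, and 6 of the 10 genes had more in ovaries. The same 7 genes had more isoforms in ovaries than in embryos, against 43.3% of all genes. *stau*, *tud* and *BicD* had fewer isoforms in ovaries than in either other assembly. The median over the 10 genes was 3.00 isoforms in ovaries, against 2.50 in embryos and 3.00 in heads, while all genes with ovary isoforms had medians of 1.00 in ovaries, 1.00 in embryos and 3.00 in heads. Of the 91 ovary isoforms, 21 were shorter than 3000 nt (11 of them of *tral* and 5 of *osk*), as were 1 of 43 in embryos and 4 of 93 in heads. The share over all genes was not computed, so these numbers cannot be read as a trait of the members. Size selection lowers the recovery of mRNAs of that length, and its part in the counts was not tested.

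*tral* lies on 3L at 12515059 to 12520954, plus strand. All of its isoforms began at 1 transcription start site (TSS), 49 nt upstream of the annotated gene start, in the 3 assemblies. The coding exons offered 3 small splice choices: an acceptor of exon 3 that adds or omits 12 nt, a donor of exon 4 that adds or omits 30 nt, and a tandem acceptor of exon 6 that adds or omits 3 nt. All 8 combinations of these choices were present in ovaries, and likewise in embryos and in heads. The 3 choices are shown because they set the 8 coding forms. Capitals mark the bases that are kept in the long form and removed in the short form (RefSeq genome copy of dm6, plus strand, chr3L:12517399-12517444, chr3L:12518209-12518269 and chr3L:12518714-12518749):
tral exon 3 acceptor: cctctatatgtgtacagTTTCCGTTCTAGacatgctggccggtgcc
tral exon 4 donor: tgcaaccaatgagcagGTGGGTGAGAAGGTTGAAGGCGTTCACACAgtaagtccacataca
tral exon 6 acceptor: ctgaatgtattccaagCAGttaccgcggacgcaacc

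Neither form of a choice was missing from an assembly. The long exon 3 was used by 21 isoforms and the short exon 3 by 16 in ovaries, against 4 and 8 in embryos and 14 and 19 in heads. The long exon 4 was used by 24 and the short exon 4 by 17 isoforms in ovaries, against 5 and 5 in embryos and 14 and 14 in heads. The long exon 6 was used by 17 and the short exon 6 by 24 isoforms in ovaries, against 5 and 8 in embryos and 12 and 23 in heads. These are numbers of listed isoforms and not of mRNA molecules. Every *tral* intron was spliced in 35 of 42 isoforms in ovaries, 10 of 13 in embryos and 20 of 38 in heads, and these coded for one of 8 annotated proteins, with coding sequences between 1929 and 1974 nt.

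The 3′ ends of *tral* also differed between the assemblies. In ovaries, 36 of 42 isoforms (85.7%) ended within 974 nt of the stop codon, against 3 of 13 (23.1%) in embryos and 15 of 38 (39.5%) in heads. Ends at 62 nt (4 isoforms), 245 nt (1) and 713 nt (8) after the stop codon were listed in ovaries only. The annotated distal end at 1803 nt was used by 1 isoform in ovaries, 8 in embryos and 12 in heads. In heads 1 isoform ended further on, at 1978 nt. With all 3 choices spliced, the 8 coding forms were all found with an end between 870 and 974 nt in ovaries, and 7 of the 8 with the end at 1803 nt in embryos. The assembler keeps a limited number of ends per exon chain, so an end that is not listed was not necessarily unused. In ovaries, 5 isoforms with different ends held each of the annotated coding sequences of 1974, 1971, 1962, 1944 and 1929 nt. No annotated *tral* coding sequence had more than 2 isoforms in embryos or 4 in heads. A limit reached in ovaries only would lower the count of 42 and change the share of 85.7%, and this was not tested.

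**Figure D2:**
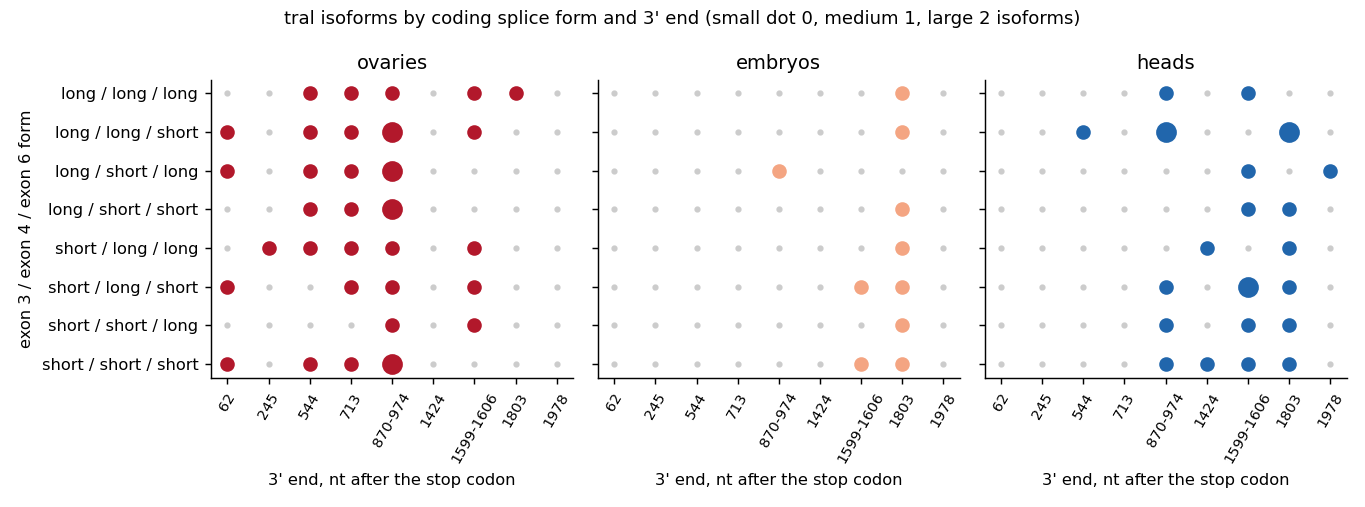
*tral* isoforms with all 3 choices spliced, by coding form (rows, exon 3 / exon 4 / exon 6) and by 3′ end in nt after the stop codon (columns) in ovaries, embryos and heads. Small grey dots mark pairs with no isoform, and coloured dots 1 (medium) or 2 (large); 32 pairs were filled in ovaries, 10 in embryos and 21 in heads.

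Ends of *tral* fell into those with and without the poly(A) signal AATAAA in the last 50 nt. The signal preceded the ovary-only end at 713 nt, the ends at 870 to 874 nt, and those at 1599 to 1606 nt. It was absent before both annotated ends, at 544 and 1803 nt, which had 16 and 15 A in the 20 nt downstream. Such A-rich sequence can prime cDNA synthesis inside an mRNA, and its part in these ends was not tested. The related signal ATTAAA stood in the last 50 nt of the end at 1803 nt, near the start of that window, and not in that of the end at 544 nt. Windows of 30 nt show the difference, with AATAAA or ATTAAA in capitals and the end with neither in lower case (plus strand of dm6, chr3L:12519815-12519844, chr3L:12519977-12520006, chr3L:12520717-12520746, chr3L:12519666-12519695 and chr3L:12520905-12520934):
tral signal before the end at 713 nt: tcccaaatctaaAATAAAagctaacttaat
tral signal before the end at 873 nt: tgaaaaaaagaaAATAAAatcggcagctac
tral signal before the end at 1606 nt: aatataccatgtAATAAAggataattgaat
tral last 30 nt of the end at 544 nt: acatagttaagcataagtatgaaaagctac
tral ATTAAA before the end at 1803 nt: gATTAAActcccgcccctaagatataattt

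Close ends also differed in use. At 873 nt there were 13 ovary isoforms, with 2 embryo isoforms at 874 nt and 2 head isoforms at 870 nt. At 974 nt there were 3 ovary and 11 head isoforms, with 1 embryo isoform at 972 nt. The Pumilio-type motif TGTANATA (N, any base, sense strand of the mRNA) was not found in the first 974 nt after the stop codon and occurred once in 1606 nt, at 1463 nt, so that only the distal ends include it. Windows of 974 nt and 1606 nt after the stop codon hold it in 25.6% and 34.0% of 13937 protein-coding genes.

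*smg* lies on 3L at 8990317 to 8997989, minus strand, and had 2 TSSs in each assembly. The upstream TSS, at the annotated gene start, opened 10 isoforms in ovaries, with 3 in embryos and 3 in heads. The TSS 895 nt downstream opened 14 in ovaries, 5 in embryos and 1 in heads. An intron of 915 nt near the end of the coding sequence separates the annotated C-termini of Smaug. It was spliced in 18 of 24 isoforms in ovaries and in 6 of 8 in embryos, while none of the 4 isoforms in heads spliced it and 3 of these retained it. Another donor for the same acceptor, giving an intron of 506 nt, was used by 3 ovary isoforms and none elsewhere. The annotated coding sequence of 3000 nt was held by 15 isoforms in ovaries and 5 in embryos and by none in heads. The annotated form of 3330 nt, whose stop codon lies in that intron, was held by 6 isoforms in ovaries, with 2 in embryos and 3 in heads.

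A short intron of 57 nt in the *smg* coding sequence was retained in 3 ovary isoforms and 1 embryo isoform, which shortened the reading frame to 2373 nt, and in none in heads. It is shown in capitals between 12 nt of exon on each side, minus strand of dm6, chr3L:8993030-8993110, with the poly(A) signal that precedes the end at 967 nt in capitals on the second line (chr3L:8990549-8990578):
smg optional intron: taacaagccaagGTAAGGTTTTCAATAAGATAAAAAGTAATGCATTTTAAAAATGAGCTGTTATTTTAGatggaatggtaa
smg poly(A) signal: aatAATAAAaacctattgtacggccagttg

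Most *smg* isoforms ended 828 to 967 nt after the stop codon of the 3000 nt form along the genome: 17 in ovaries, with 5 in embryos and 2 in heads. The distal end at 1267 nt was used by 4, 3 and 1 isoforms in ovaries, embryos and heads. Single ovary isoforms ended 86 nt before that stop codon and at 470 and 667 nt after it, none of them preceded by AATAAA. Isoforms that share no annotated intron with *smg* and lie on its strand numbered 2 in ovaries and 2 in heads, and were not counted.

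*cup*, on 2L at 6663664 to 6674780, plus strand, encodes an eIF4E-binding repressor. Its ovary and embryo isoforms carried the ID of CG34310, to which the annotation gives the same exons as to *cup* with a separate, short coding sequence at the 3′ end. With these, *cup* had 4 isoforms in ovaries, with 1 in embryos and 1 in heads. In ovaries, 2 held the annotated coding sequence of 3354 nt, 1 skipped the second exon and kept a frame of 2493 nt, and 1 retained a 2550 nt intron. The embryo isoform and the head isoform both held the 3354 nt coding sequence. The TSS differed between the listed isoforms: all 4 in ovaries and the 1 in embryos began 305 nt inside the annotated gene. The 1 in heads began 51 nt upstream of it. On the *cup* strand, 2 more isoforms in ovaries and 2 in heads shared no annotated intron with *cup* and were not counted. The same held for 1 isoform at *tral* in heads and 1 at *tud* in ovaries. The 40 nt before each TSS, with the first transcribed base in capitals, are shown for comparison (plus strand of dm6, chr2L:6663929-6663969 and chr2L:6663573-6663613):
cup TSS in ovaries and embryos: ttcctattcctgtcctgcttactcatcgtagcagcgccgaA
cup TSS in heads: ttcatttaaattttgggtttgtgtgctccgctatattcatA

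*osk*, on 3R at 8935126 to 8938395, plus strand, had 5 isoforms in ovaries, with none in embryos and 2 in heads. Both head isoforms had the exons and ends of an ovary isoform, namely the annotated form with a coding sequence of 1821 nt and a form that retained a 95 nt intron and was cut to 957 nt. The other ovary isoforms were 1 that ended 65 nt after the stop codon in place of 1028 nt, 1 that retained the last 58 nt intron, and 1 that spliced out 63 nt of the coding sequence. That 63 nt intron is annotated for the overlapping lncRNA:osk and not for *osk*, and kept the frame open at 1758 nt. *nanos*, on 3R at 19157238 to 19160202, plus strand, was found in ovaries only, with 2 isoforms. They differed by a 57 nt intron in the coding sequence, which gave coding sequences of 1149 nt when spliced and 1206 nt when retained, both annotated. The introns that ovary isoforms of both genes used or kept are shown in capitals between 12 nt of flanking exon (plus strand of dm6, chr3R:8937067-8937153 and chr3R:19157528-19157608):
osk optional intron: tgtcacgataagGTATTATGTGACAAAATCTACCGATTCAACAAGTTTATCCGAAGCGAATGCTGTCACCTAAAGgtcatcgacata
nanos optional intron: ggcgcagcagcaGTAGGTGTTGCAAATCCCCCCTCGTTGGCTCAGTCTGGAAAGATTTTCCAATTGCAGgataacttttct

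Both *nanos* isoforms ended 556 nt after the stop codon, 324 nt short of the nearest annotated end and without AATAAA in the last 50 nt. The loop bases CTGGC, which Smaug binds at the tip of a hairpin in *nanos* mRNA, occurred at 32 and 132 nt after the stop codon, so both isoforms included both matches. Windows of 556 nt after the stop codon hold CTGGC on the sense strand in 32.2% of 13937 protein-coding genes. The 2 matches are given in capitals, with no hairpin predicted (chr3R:19159342-19159371 and chr3R:19159442-19159471, plus strand of dm6):
nanos CTGGC at 32 nt: ggagcagaggctCTGGCagcttttgcagcg
nanos CTGGC at 132 nt: tttaaatagcgcCTGGCgcgttcgatttta

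*vas*, the DEAD-box helicase of germ plasm, lies on 2L at 15061656 to 15074311, plus strand, and had no isoform under its own ID in any assembly. The single isoform at the locus, in ovaries, carried the ID of *solo*, a gene that shares the first exons of *vas* and then splices into exons within a *vas* intron. It ended inside the last *solo* exon, and none of the *vas* exons that follow the shared ones was included. *aub*, on 2L at 10997819 to 11001476, minus strand, encodes a PIWI protein that binds piRNAs. Its annotated isoform, with a coding sequence of 2601 nt, was listed once in each tissue with the same ends. In ovaries 1 more isoform retained a 64 nt intron and was cut to 1704 nt.

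*BicD*, on 2L at 17459605 to 17473215, minus strand, had 1 isoform in ovaries, 6 in embryos and 10 in heads, from 1 TSS. The ovary isoform spliced all introns and ended 908 nt after the stop codon. The distal end, at 2120 nt, was listed in embryos (1 isoform) and heads (2), and an end at 327 nt in embryos (1) and heads (3). The annotated coding sequence of 2349 nt was held by 1, 3 and 3 isoforms in ovaries, embryos and heads. The other annotated form, of 2253 nt, was held by 2 isoforms in embryos and 2 in heads and by none in ovaries. Both the end that ovaries used and the distal end were preceded by AATAAA, in capitals here (minus strand of dm6, chr2L:17460830-17460859 and chr2L:17459609-17459638):
BicD signal before the end at 908 nt: tttaatacaattAATAAAttgcaacgcaac
BicD signal before the end at 2120 nt: aaaatatgtgaaAATAAAcaaactagcaaa

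**Figure D3:**
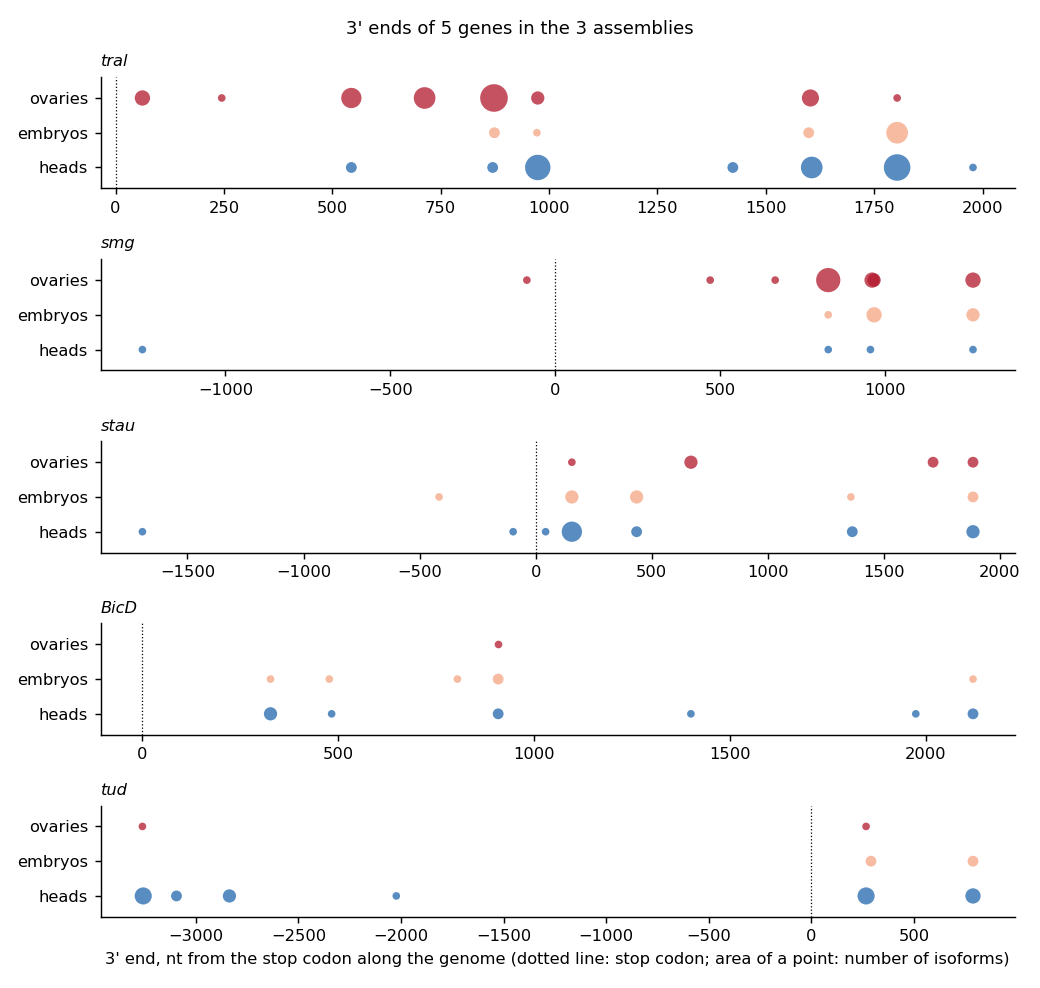
Position of 3′ ends along the genome relative to the stop codon (horizontal axis, nt; dotted line, stop codon) for *tral*, *smg*, *stau*, *BicD* and *tud* in ovaries, embryos and heads (rows). The area of a point is the number of isoforms that end there; the *BicD* end at 2120 nt and the *tud* end at 787 nt have points in embryos and heads and none in ovaries.

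*stau*, on 2R at 18117896 to 18125779, minus strand, had 8 isoforms in ovaries, with 10 in embryos and 17 in heads, from 1 TSS. A tandem acceptor that adds or omits 3 nt gave 2 annotated coding sequences, of 3081 and 3078 nt. The longer was held by 3 isoforms in ovaries, with 4 in embryos and 5 in heads, and the shorter by 3, 3 and 4. The distal end, 1884 nt after the stop codon, was used by 2 isoforms in ovaries, with 2 in embryos and 3 in heads. Ends at 669 nt (3 isoforms) and 1712 nt (2) were listed in ovaries only, and each had AATAAA in its last 50 nt. The annotated end at 156 nt, with 17 A in the 20 nt downstream, was used by 1 isoform in ovaries, 3 in embryos and 7 in heads, and the end at 435 nt by 3 in embryos, 2 in heads and none in ovaries.

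*tud*, on 2R at 21183322 to 21192913, plus strand, had 2 isoforms in ovaries, with 4 in embryos and 20 in heads. One ovary isoform held the annotated coding sequence of 7548 nt and ended 266 nt after the stop codon. The other ended 3260 nt before the stop codon, inside the coding sequence. In heads, 11 isoforms likewise ended 2023 to 3256 nt before the stop codon, and only 4 of 20 held an annotated coding sequence whole. In embryos 3 of 4 did. The annotated distal end at 787 nt was used by 2 isoforms in embryos, 4 in heads and none in ovaries.

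Over the 10 genes, the most distal 3′ end could be compared with heads in 8 genes with overlapping last exons. In ovaries it lay more than 150 nt upstream in *BicD* (1212 nt), *tud* (521 nt) and *tral* (175 nt), which is 3 of 8 genes, against 27.6% of 5913 genes. No member had an end over 150 nt more distal in ovaries than in heads, against 2.11% of genes. Against embryos, *BicD* and *tud* were shorter in ovaries by the same distances, 2 of 7 genes against 15.2% of 4509, and no member was longer by over 150 nt, against 7.52%. These counts stand close to those of all genes.

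**Figure D4:**
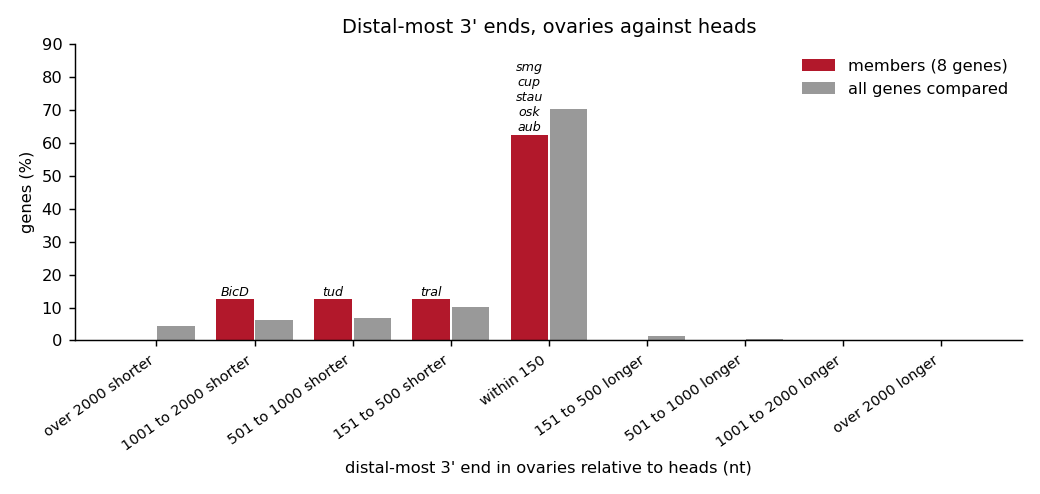
Share of genes (vertical axis, %) by how far the most distal 3′ end in ovaries lay from that in heads (horizontal axis, nt) for 8 member genes and 5913 genes in all. *BicD*, *tud* and *tral* were shorter in ovaries and the other 5 members lay within 150 nt.

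A larger share of members than of all genes had ends and introns seen in ovaries only. A poly(A) site (PAS, ends joined across gaps of up to 150 nt) found in ovaries only was present in 7 of 10 members, all except *tud*, *aub* and *BicD*, against 19.9% of genes. That of *vas* was the end of its *solo* isoform, inside the last *solo* exon. None of the 12 ovary-only PASs of members lay within 150 nt of an annotated end of the gene. Of these, 3 had AATAAA, 1 had only ATTAAA, and none had A-rich sequence (at least 12 A in 20 nt) downstream. The shares with these features were not computed for the ovary-only PASs of all genes. When only ends near annotated ones were kept, 0 of 7 members had such a PAS, against 10.2% of genes. That filter removes all 12 PASs, since none lay near an annotated end, so the 0 is not a separate result. An intron found in ovaries only was present in 5 of 10 members (*smg*, *cup*, *osk*, *nanos* and *vas*, the last through its *solo* isoform), against 7.96%. A TSS found in ovaries only was present in *nanos* and *vas*, 2 of 10 against 6.26%. Both had no isoform elsewhere, so all their ovary-only calls follow from that. Among genes with isoforms in heads or embryos, 5 of 8 members had an ovary-only PAS, against 17.4%. An ovary-only intron was then present in 3 of 8, against 6.70%. Members also had more ovary isoforms per gene (median 3.00 against 1.00), and the part of this in the counts was not tested.

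Of the 26 PASs that members used in ovaries, 11 were also used in both other assemblies, against 49.6% of the 8818 PASs that all genes used in ovaries. An isoform with the same splice sites (within 10 nt), 5′ end (50 nt) and 3′ end (150 nt) was found in ovaries and heads in 6 of 8 members (*tral*, *smg*, *stau*, *osk*, *tud* and *aub*), against 78.7% of genes, and in ovaries and embryos in 7 of 7 members, against 76.1%. AATAAA stood in the last 50 nt of 41.4% of 29 distinct member ends in ovaries, 47.6% of 21 in embryos and 33.3% of 33 in heads, against 41.2%, 35.9% and 31.0% of the ends of all genes in ovaries, embryos and heads.

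Retained introns were counted where an exon included an annotated intron of the gene whole, also when another annotated transcript keeps it. They were present in 31 of 91 member isoforms in ovaries (34.1%), against 18.0% of isoforms of all genes. In embryos the values were 37.2% for members and 32.3% for all genes, and in heads 48.4% and 47.9%. In ovaries 17 of the 31 were *smg* isoforms, all of which kept a 64 nt intron downstream of the stop codon of the 3000 nt form. An annotated coding sequence was held whole by 78.0% of member isoforms in ovaries, by 79.1% in embryos and by 47.3% in heads, against 81.7%, 61.5% and 47.5% of isoforms of all genes in ovaries, embryos and heads. Among members, *tral* gave 35 of 42 in ovaries, 10 of 13 in embryos and 20 of 38 in heads.

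**Figure D5:**
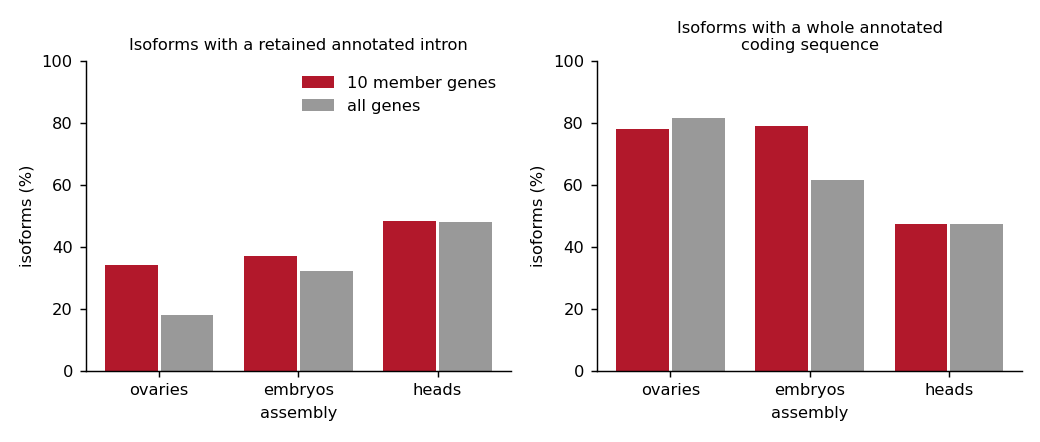
Share of isoforms (vertical axis, %) with a retained annotated intron (left) and with a whole annotated coding sequence (right) in ovaries, embryos and heads, for the 10 member genes and all genes. In ovaries 34.1% of member isoforms and 18.0% of all isoforms retained an intron.

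Of 41 genes that work with the members in mRNA repression, transport, poly(A) tail control, egg activation, the piRNA pathway and germ cell fate, 38 were found in ovaries, 26 in embryos and 37 in heads. Over all genes, 4747 of the 6693 with ovary isoforms were found in embryos and 6420 in heads. More isoforms in ovaries than in heads were listed for 7 of them and more than in embryos for 29, beside 6.66% and 43.3% of all genes with ovary isoforms. The highest ovary counts belonged to *BicC* (22, 0 and 2 isoforms in ovaries, embryos and heads), an RNA-binding repressor of *osk* translation, *Hrb27C* (20, 18 and 45), an hnRNP, *bru1* (15, 3 and 22), which represses *osk*, *brat* (14, 11 and 13), a partner of Pumilio and Nanos, and *wisp* (13, 1 and 1), the cytoplasmic poly(A) polymerase of the female germline. *AGO3*, a PIWI protein that works with Aubergine, had 5 isoforms in ovaries, with 1 in embryos and none in heads.

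Genes whose isoform counts over the 3 assemblies were most like those of a member were found by the distance of log2(isoforms + 1). For *tral* they were *cg* and *heph* (0.880 each) and *Mnt* (1.03), and for *smg* *tyf* (1.11), *Marf1* (1.30) and *pico* (1.37). For *stau* they were *Slik* (0), *Tnpo* (0.138) and *sima* (0.228), and for *osk* lncRNA:osk (0, the same isoforms counted under both genes), *lok* (0.263) and *mu2* (0.263). Marker lists checked the tissue labels. None of 8 neuronal and photoreceptor genes appeared in ovaries, whereas 6 did in embryos and all 8 in heads. Of 4 female germline genes, all 4 appeared in ovaries, 2 in embryos and 2 in heads, and of 8 eggshell and follicle cell genes 6 appeared in ovaries, with 1 in embryos and 4 in heads. The 4 eggshell list genes found in heads were *dec*, *Yp1*, *Yp2* and *Yp3*. Of 6 late embryo epidermis and patterning genes, none appeared in ovaries and all 6 appeared both in embryos and in heads, so this list did not separate embryos from heads. Testis genes had isoforms for 5 of 5 in heads and for none in ovaries or embryos. Whether RNA of gonads reached the head libraries, which bears on the *osk* and *aub* isoforms there, was not tested.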

How the data were processed

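Polyadenylated RNA of 15 w1118 libraries was sequenced as cDNA on Oxford Nanopore devices. The authors merged the replicates of a tissue, aligned the reads by minimap2 (build dm6) and assembled isoforms in FLAIR from short-read junctions, promoter-supported 5′ ends and a minimum of full-length reads. The study describes a filter that keeps 3′ ends with independent poly(A) evidence, but the sources used here do not say whether the deposited files carry it. The deposited files hold exon positions, with no counts, so no read support or replicate spread of an isoform could be computed. Positions were compared with Ensembl release 115, and sequence was read from the RefSeq copy of the same assembly.

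TSSs and PASs were formed at gaps over 50 and 150 nt, and calls were made for all genes. The functions that make the calls were run on simulated assemblies. These held no differences near the gap limits and did not cover the assignment of isoforms to loci. Coding sequences were compared exon by exon with annotated ones. Named were all 10 members, the 5 partner genes with most ovary isoforms and those with ovary but no head isoforms, and for each member with at least 5 ovary isoforms the 3 nearest genes. The set of members and the lists were drawn up with earlier results of these data known, although no value was used as a criterion. Python 3.11.15, numpy 2.4.6 and matplotlib 3.10.9 were used.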

Additional observations from a re-analysis of the deposited data

How the results depend on the processing

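Of 62 alternative values for the 11 counts of members, 50 stayed within 1.5 times the value reported and 12 moved further. The 50 include all those for a more distal end in ovaries than in heads or embryos, which were 0 at every setting. Counts were compared although some settings left fewer members. Most of the 12 moved when only isoforms ending within 150 nt of an annotated 3′ end were kept, which left 7 members with ovary isoforms. Then 4 of the 7 had more isoforms in ovaries than in heads (11.0% of genes) and 4 more than in embryos (46.9%). In ovaries only, 0 had a TSS and 0 a PAS, against 9.18% and 10.2% of genes, and 3 an intron, against 11.6%. At the distal end, 1 of 7 was shorter in ovaries than in heads, against 8.72%, and 1 of 6 than in embryos, against 5.90%. By deposited gene ID alone, *cup* and *vas* have no ovary isoforms. Then 1 of 8 members had a TSS and 3 an intron in ovaries only, against 7.17% and 9.12% of genes. Joining ends across 300 nt left 4 of 10 members with a PAS in ovaries only, against 14.7% of genes. A further alternative, chosen after seeing the data, kept genes with isoforms in heads or embryos. There, 0 of 8 members had a TSS and 3 an intron in ovaries only, against 3.30% and 6.70% of genes. No paired analysis was possible because the assemblies carry no replicates. Without read numbers, an isoform missing from an assembly cannot be told from one below its read minimum, and ovaries had the fewest reads.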
